A study of Lathyrus oleraceus with 16 samples.

Results

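The 72 genes described here were read in every arrested shoot apex of pea, were all but absent from apices of plants that never carried seeds, and were still seen 24 h after the fruits had been cut off. They were chosen by measured values from the 48559 gene IDs of the count table. A member had 1 or more CPM (the count divided by the library's total count and multiplied by 1000000) in each Arrested library, 3 or fewer counts summed over the 4 Pruned libraries, and more than 3 counts summed over the 4 Reactivated libraries. Of the 104 genes that met the Arrested and Pruned limits, 72 met the Reactivated limit and 32 did not. High values in Arrested, near-zero values in Pruned and the minimum in Reactivated are therefore properties of the choice and no findings. Only the Proliferative libraries were not used in choosing the members.

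All 16 libraries came from wild-type Pisum sativum of the cultivar Cameor, grown in a greenhouse with 16 h of light, 21.5 °C by day and 15 °C by night, and each of 4 groups had 4 libraries. Proliferative apices came from young plants that bore a first flower bud and no open flower. Arrested apices were taken as the plants entered proliferative arrest. Pruned apices were taken on the same day as the Arrested ones from plants that had been deflowered throughout and whose meristem was active, and Reactivated apices 24 h after all fruits and flowers had been removed from arrested plants. Collection was by eye, and leaves and flower buds were taken off as far as possible. Each group is said to hold biological replicates, and whether a library came from 1 plant or several is not given. In such bulk samples, fewer cells of a type and less RNA per cell cannot be told apart. Library totals ran from 16264221 to 24435174 counts.

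Pea is a monocarpic plant, whose inflorescence apex makes flowers for a time and then stops while fruits fill. Developing seeds are known to bring on this stop, and an arrested apex can resume growth when the fruits are taken away. The IDs of the count table could not be tied to names, since 0 of them stood in the RefSeq gene table of another pea assembly. No gene name, function, sequence or position is given for that reason, and markers of the meristem or of other tissues were not analysed here. Members are described by their behaviour and, for single genes, by their IDs.

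In Arrested libraries the 72 genes together held 0.139% to 0.207% of all counts, against 0.0111% to 0.0173% in Reactivated, 0.000407% to 0.00911% in Proliferative and 9.39e-05% to 0.000149% in Pruned. The 5 members with the most reads made up 63.0% of the members' Arrested counts. Mean CPM in Arrested ran from 1.25 to 282 with a median of 5.49, while the median over all 23979 genes that passed the low-count filter was 14.6. CPM is not corrected for gene length, so an order among genes by CPM is an order of reads. In Pruned, 25 members had 0 counts, 19 had 1, 9 had 2 and 19 had 3.

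**Figure D1:**
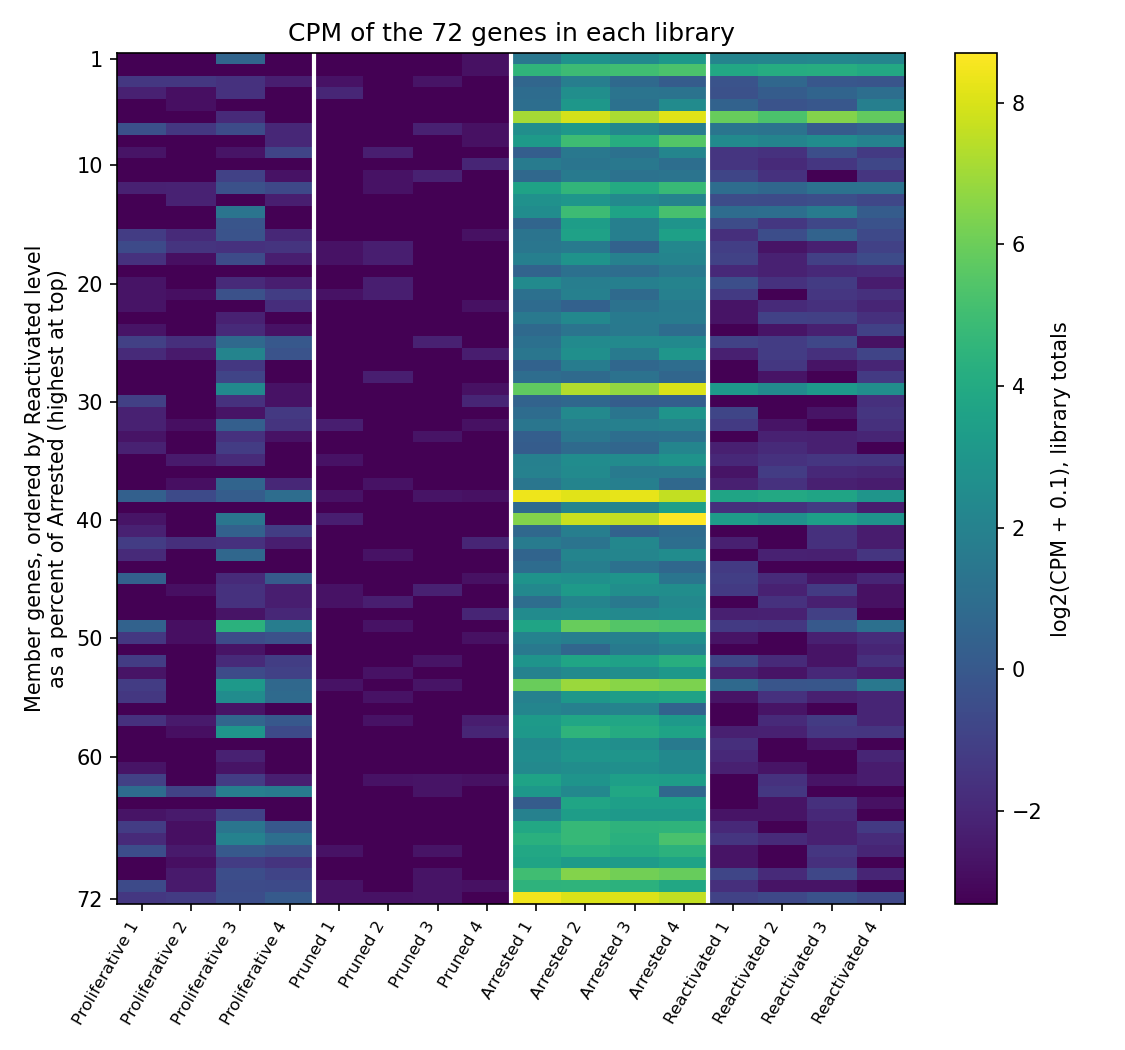
Colour gives log2(CPM + 0.1) of each of the 72 genes (vertical axis, ordered by the Reactivated level as a percent of the Arrested level) in each of the 16 libraries (horizontal axis). All members are at 1 CPM or more in the Arrested libraries by choice. Rows with the highest Reactivated CPM lie partly near the top and partly further down, as Psat7g089640 does. Proliferative 3 is brighter than the other 3 Proliferative libraries for many members.

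Psat7g089640 and Psat7g090800 had the highest CPM of all members in Arrested and parted at 24 h. Psat7g089640 stood at 338, 285, 309.5 and 197 CPM in Arrested 1 to 4 and at 12.9, 15.4, 12.7 and 7.52 in Reactivated 1 to 4. Psat7g090800 stood at 344, 263, 267 and 192 CPM in Arrested and at 0.424, 0.509, 0.707 and 0.490 in Reactivated. For each gene the highest Reactivated library lay far below the lowest Arrested library. Psat7g089640 kept 4.16% of its Arrested level, taken from summed counts and summed library totals, and Psat7g090800 kept 0.197%, the smallest percent of any member. Their log2 fold changes from Arrested to Reactivated were -3.96 (SE 0.26, edgeR adjusted p = 8.50e-10) and -8.37 (SE 0.29, edgeR adjusted p = 1.74e-12).

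From Arrested to Reactivated most members were lower, which the choice of members largely sets. The rule used the values of both groups and asked far more of Arrested, with 1 CPM in each library, than of Reactivated, with more than 3 counts in all. Of the 72, 56 would not have passed the low-count filter without their Arrested libraries. Among these, 30 had no other library past the filter's CPM limit. The counts, medians and adjusted p-values of this comparison are given as a description, and nothing about the members as a set is read from them. In edgeR's quasi-likelihood test across all genes, 66 of the 72 members were lower in Reactivated than in Arrested at an adjusted p under 0.05, 0 were higher and 6 had no call. Over all genes tested, 35.8% were lower and 36.3% higher. The median log2 fold change was -3.93 over the members and -0.01 over all genes tested, and the median standard error was 0.77 for members and 0.22 for all genes. Called falls among members ran from -1.15 to -8.37 on the log2 scale. Every Reactivated library lay below every Arrested library in CPM for 68 members, where this held for 46.9% of all genes tested. Both values use library totals, which favour lower Reactivated values than TMM sizes do. With TMM sizes it held for 64 members, and the share over all genes was not computed.

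The level kept at 24 h was small for most members and spread widely among them. As a percent of the Arrested level it had a median of 4.22%, with quartiles of 1.67% and 7.93% and a range of 0.197% to 76.6%. For all genes tested with a count in Arrested the median was 65.7%. Under 1% was kept by 11 members, 1% to under 10% by 50, 10% to under 50% by 9 and 50% or more by 2. These percents use library totals. Sizes scaled with TMM factors, which brought the median of all genes to 98.5%, gave the members a median of 6.32% and left 47 under 10% in place of 61. Among the 14 members with a mean of 20 CPM or more in Arrested the percent kept ran from 0.197% to 53.1%, with 5 of them under 1% and 3 at 10% or more.

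**Figure D2:**
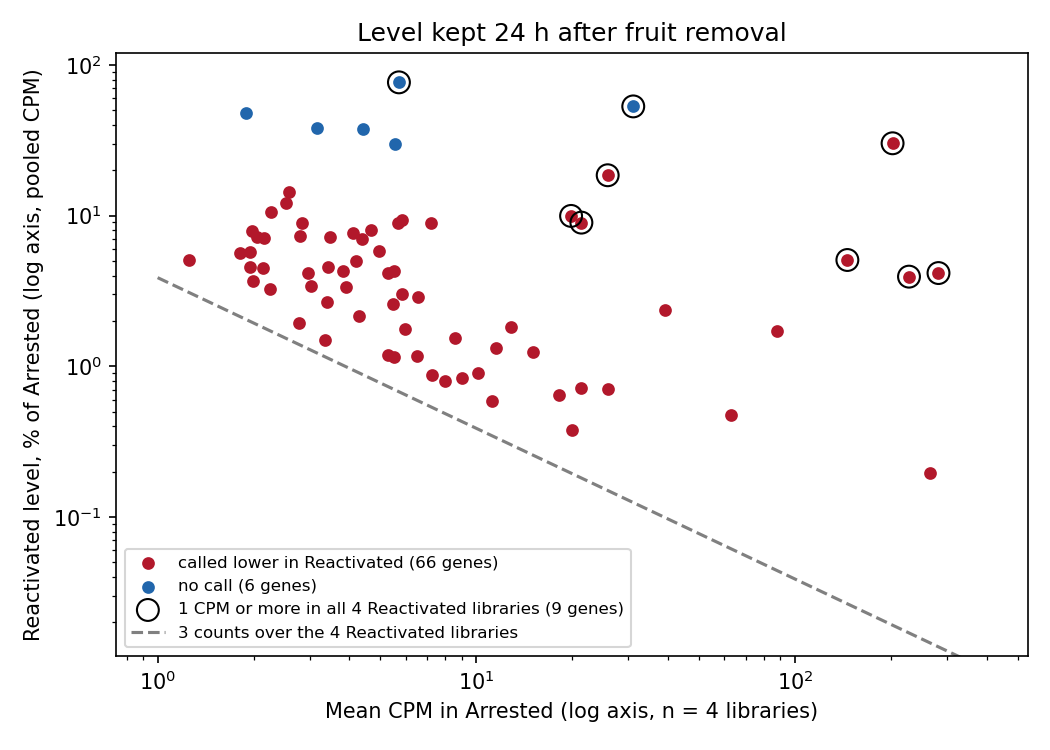
Each point is 1 of the 72 genes, with its mean CPM in Arrested (horizontal, log axis) and its pooled Reactivated level as a percent of Arrested (vertical, log axis). All points lie above the dashed line, the level of 3 counts at or below which no gene could be a member. Of the 72, 26 rest on 10 or fewer Reactivated counts. The 6 genes without a call in edgeR lie between 29.9% and 76.6%.

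Detection in Reactivated rested on few reads for many members. Over the 4 libraries, which hold 77427643 counts, the summed count had a median of 14.5 and ran from 4 to 4724, and 26 members had 10 or fewer. All 4 Reactivated libraries held a count of 41 members, 3 libraries of 21, 2 libraries of 7 and 1 library of 3. A single library gave 50% or more of the Reactivated counts for 32 members. Near the limit, 2 members had 4 summed counts and 6 had 5, and 3 genes with 3 counts stayed outside. The Arrested limit was passed with a lowest library of 1.05 CPM by the member nearest to it, and 1 gene at 0.922 CPM stayed outside. At the Pruned limit, 19 members had 3 counts and 14 genes with 4 counts stayed outside.

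Reactivated reads were concentrated in 9 members that had 1 CPM or more in each of the 4 libraries and held 86.2% of the members' Reactivated counts. Their mean Reactivated CPM ran from 1.96 to 61.1, and they kept 3.93% to 76.6% of the Arrested level. Of the other 63 members, 7 reached 1 CPM in at least 1 library and 56 in none. By Arrested CPM these 9 genes ranked 1, 3, 4, 5, 9, 11, 12, 15 and 32 among the 72. Even so, 7 of the 9 were called lower in Reactivated than in Arrested by edgeR.

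**Figure D3:**
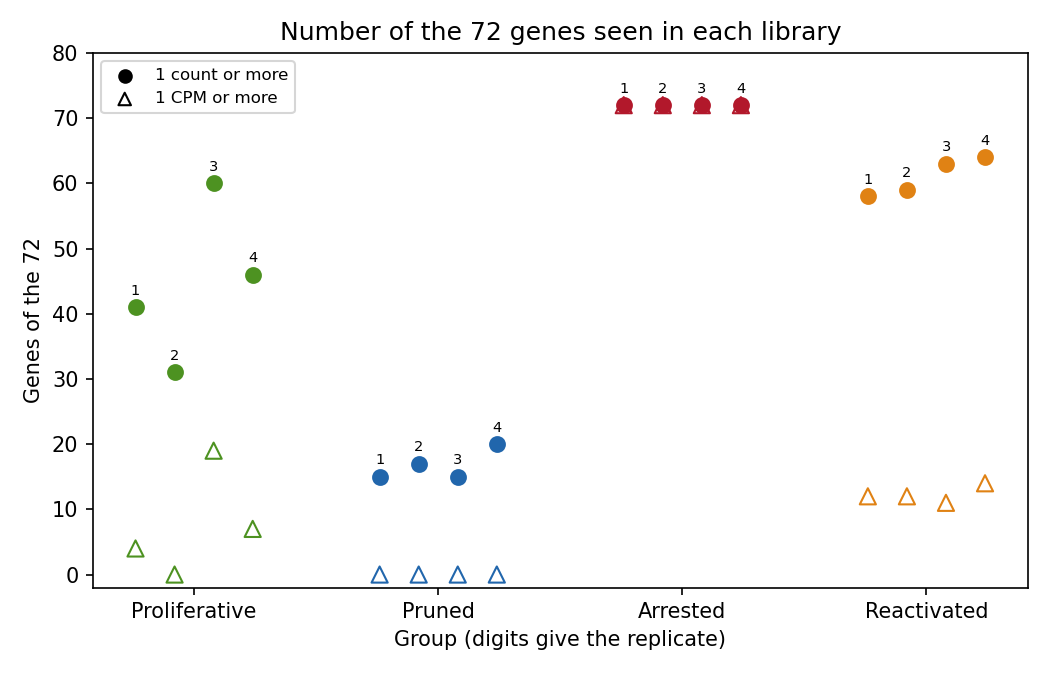
For each library, filled circles give how many of the 72 genes had 1 count or more and open triangles how many had 1 CPM or more; digits are replicate numbers. Reactivated libraries showed 58 to 64 genes with a count and 11 to 14 at 1 CPM, and Proliferative libraries were spread from 31 to 60 and from 0 to 19.

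Psat1g095640 alone gave 44.5% of the members' Reactivated counts. It stood at 136, 242, 145 and 287 CPM in Arrested 1 to 4 and at 60.5, 38.8, 88.9 and 56.1 in Reactivated 1 to 4, against 0 counts in Pruned. By library totals every Reactivated library was below every Arrested library, and all were far above Pruned. With sizes scaled by TMM factors Reactivated 3 came above Arrested 1, so this separation depends on the scaling. It kept 30.2% of the Arrested level by library totals and 45.2% with TMM sizes. With TMM factors edgeR put its log2 difference at -1.15 (SE 0.32, adjusted p = 0.00588).

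Psat6g002880 and Psat1g095720 kept the largest shares of their Arrested level. Psat6g002880 stood at 2.62, 6.79, 5.16 and 8.30 CPM in Arrested and at 4.24, 4.41, 4.57 and 4.27 in Reactivated. Its Reactivated level was 76.6% of Arrested by library totals and 115% with TMM sizes. Its Reactivated libraries lay close together and inside the range of the Arrested ones. The log2 difference of 0.18 (SE 0.78, edgeR adjusted p = 0.850) had no stable sign, being -0.39 with library totals and -0.07 without Arrested 1. Psat1g095720 stood at 23.3, 30.2, 32.3 and 38.6 CPM in Arrested and at 14.8, 17.6, 17.8 and 15.4 in Reactivated. It kept 53.1% of the Arrested level by library totals and 79.5% with TMM sizes. All its Reactivated libraries were below all Arrested ones in CPM by library totals. With TMM sizes the groups overlapped, since Reactivated 3 came above Arrested 1. With TMM factors its log2 fold change was -0.35 (SE 0.21, edgeR adjusted p = 0.141). With library totals it was -0.92 and passed (edgeR adjusted p = 0.000969), as it did at -0.42 when only the 8 libraries of these groups were fitted (edgeR adjusted p = 0.0359).

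The remaining 4 members without a call, named here after their values were seen, had low levels with large spread. Psat5g201640 stood at 1.47, 3.40, 1.65 and 1.05 CPM in Arrested and at 0.742, 1.53, 0.870 and 0.801 in Reactivated. Psat5g044760 stood at 1.83, 6.14, 2.38 and 2.27 CPM in Arrested and at 0.689, 1.02, 1.36 and 1.96 in Reactivated. For both genes Arrested 2 was the highest library, and the groups overlapped. Psat6g086440 stood at 1.94, 8.18, 2.12 and 5.41 CPM in Arrested and at 1.27, 0.735, 0.870 and 3.61 in Reactivated, where replicate 4 reached into the Arrested range. Psat5g202720 stood at 6.13, 8.31, 4.70 and 3.07 CPM in Arrested and at 2.49, 2.26, 0.978 and 1.34 in Reactivated, without overlap by library totals. With TMM sizes its Reactivated 1 came above its Arrested 4. Their log2 fold changes were -0.38 (SE 0.47), -0.74 (SE 0.63), -0.86 (SE 0.61) and -1.08 (SE 0.47) in this order, with edgeR adjusted p of 0.484, 0.300, 0.221 and 0.05004. These errors leave room for falls as well as for unchanged levels, and the value for Psat5g202720 passed under 11 of the 22 alternatives.

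**Figure D4:**
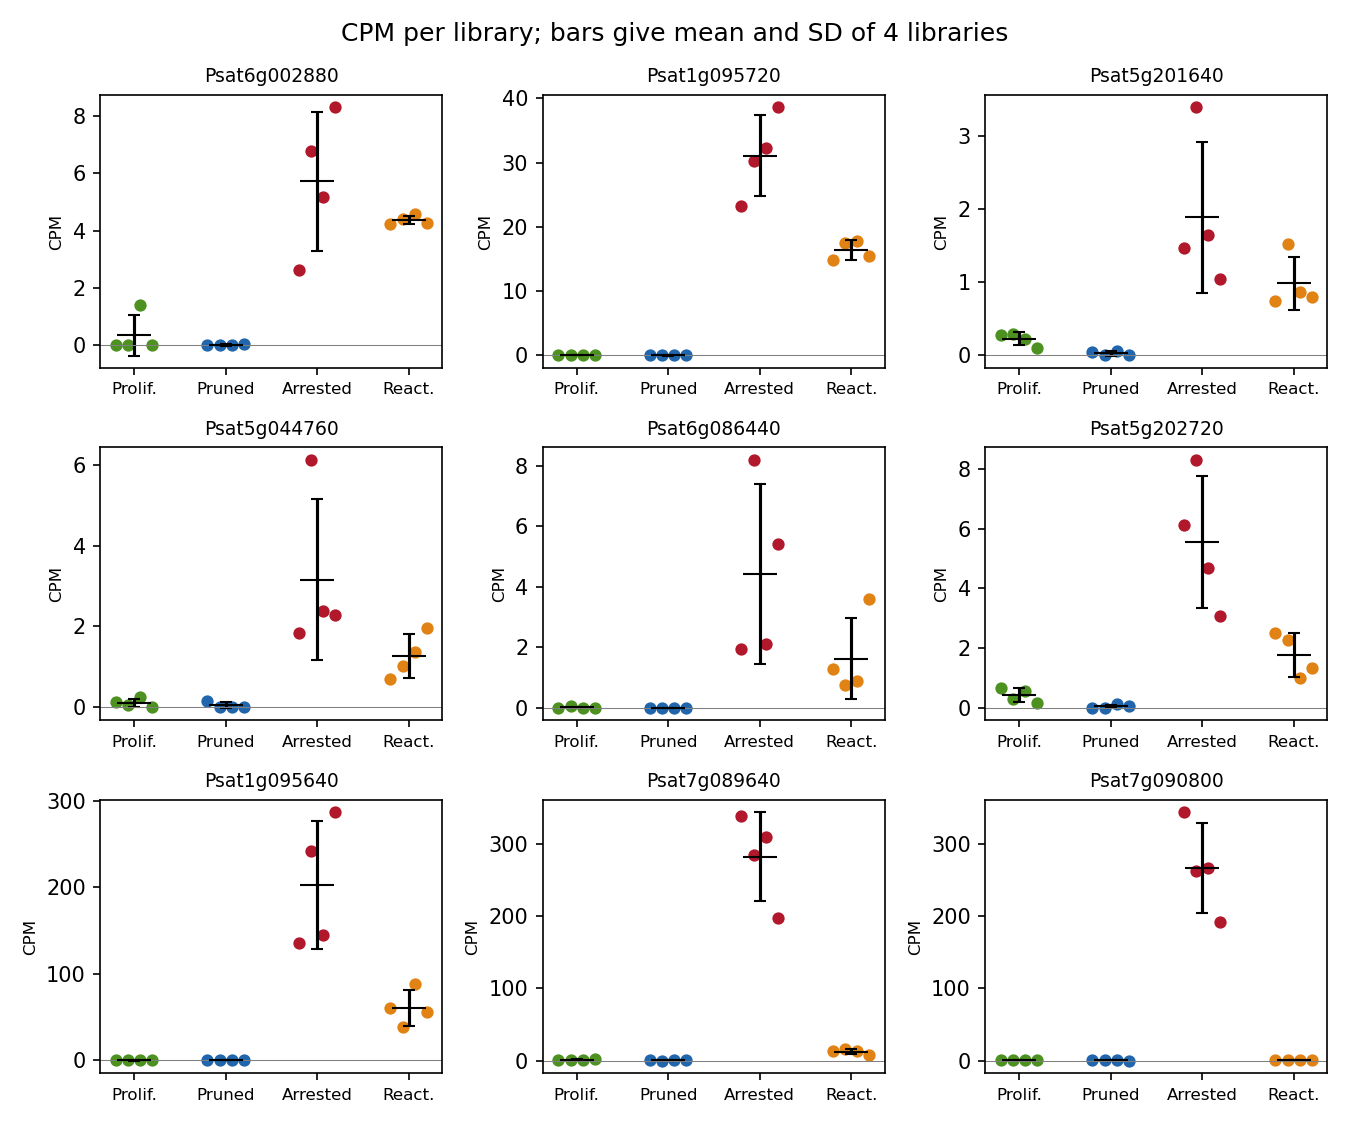
CPM per library (points) with mean and SD of 4 libraries (bars) in the 4 groups, on axes of their own, for the 6 genes without a call (first 6 panels) and for Psat1g095640, Psat7g089640 and Psat7g090800. CPM here uses library totals. In Reactivated, Psat6g002880 lies inside its Arrested range and Psat7g090800 is near 0. Psat1g095720 lies below its Arrested range, at 53.1% of the Arrested level, but overlaps it with TMM sizes.

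Besides Psat7g090800, the largest relative fall with a call was that of Psat0s2234g0120. It stood at 22.0, 22.3, 21.0 and 14.9 CPM in Arrested, and its Reactivated counts were 4, 1, 1 and 0, which is 0.380% of the Arrested level. Arrested 4 lay below the other Arrested libraries, which were close together, and no Reactivated library reached 1 CPM. The log2 fold change was -7.33 (SE 0.59, edgeR adjusted p = 1.20e-08).

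Between Arrested libraries, members had a larger relative spread than genes at large, but also lower levels. Their median Arrested CPM was 5.49, against 14.6 over all genes tested. Counting error adds more to the relative spread at low levels, and the genes compared were not matched by level. The coefficient of variation over the 4 libraries had a median of 36.0% and a range of 6.35% to 76.1%, against a median of 14.9% over the 21184 genes tested with a mean of 1 CPM or more. Arrested 1 was the lowest library for 43 members and Arrested 2 or Arrested 4 the highest for 31 and 27. Over all genes tested Arrested 1 was the lowest library for 21.5%, and Arrested 2 and Arrested 4 were the highest for 23.6% and 21.1%. The 5 members with the most reads did not share an order. Psat1g095640, Psat5g242600 and Psat5g242640 were highest in Arrested 4 and lowest in Arrested 1, and Psat7g089640 and Psat7g090800 the reverse.

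Some members carry IDs that are close in number. Psat5g242600 and Psat5g242640 are successive IDs of the table. Psat5g242600 stood at 88.0, 214, 193 and 417 CPM in Arrested and at 9.91, 6.78, 11.1 and 7.12 in Reactivated. Psat5g242640 stood at 54.2, 160.5, 108 and 262 CPM in Arrested and at 8.90, 5.31, 8.86 and 6.05 in Reactivated. The libraries fell in the same order for both genes in Arrested, and the kept percents were 3.93% and 5.07%. Psat1g095640 and Psat1g095720 are separated by 1 ID, Psat1g095680, whose counts were 307 to 473 in Pruned, 708 to 1051 in Arrested and 166 to 290 in Reactivated, so that the gene listed between them was not silent in Pruned. Successive IDs also occurred for Psat4g057480 and Psat4g057520, and Psat7g058200 and Psat7g058280 were 1 ID apart. The counts were made without regard to strand, so reads of overlapping or antisense neighbours, and of near-identical copies, could not be assigned with certainty, and these pairs may share reads. By the digit after Psat, 17 of the 72 IDs (23.6%) begin with Psat7, as do 14.2% of all genes tested, and 2 (2.78%) begin with Psat3, as do 10.9%. Whether these shares differ was not tested.

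Proliferative apices, which no limit of the choice used, held reads of many members at a low level. Of the 72 genes, 8 had 0 counts over the 4 Proliferative libraries, 8 had 1 to 3, and 56 had more than 3. No member had 1 CPM in all 4 Proliferative libraries, and 20 had it in at least 1. The pooled Proliferative level had a median of 2.74% of the Arrested level and a highest value of 27.6%. The choice on Arrested values, and a filter that 56 members passed only by their Arrested libraries, set the direction against Proliferative. The next count is therefore a description from which nothing is read. By edgeR 69 members were higher in Arrested, as were 30.6% of all genes tested. The members without this call, named after their values were seen, were Psat4g057480, Psat4g057520 and Psat4g084760, with edgeR adjusted p of 0.0668, 0.0691 and 0.0699.

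Proliferative 3 stood apart for these genes. It gave 64.3% of the members' Proliferative counts but 22.1% of the counts of the Proliferative libraries, and it was the highest library for 46 of the 64 members with a count, as it was for 21.4% of all genes tested. The number of members at 1 CPM or more was 4, 0, 19 and 7 in Proliferative 1 to 4. Psat4g199880, the member with the highest mean Proliferative CPM, stood at 1.29, 0.0416, 20.2 and 3.30, and Psat4g051840, the next, at 0.336, 0, 9.04 and 1.55. Both were high in replicate 3 and near 0 in replicate 2. In Reactivated 1 to 4 the first stood at 0.318, 0.283, 0.924 and 2.05 CPM and the second at 1.64, 0.791, 0.815 and 2.67. Neither passed the test between Reactivated and Proliferative (log2 fold changes of -2.32 with SE 1.00 and -0.41 with SE 0.84, edgeR adjusted p = 0.0766 and 0.732). Without Proliferative 3, 35 members had 3 or fewer Proliferative counts in place of 16. What sets this library apart was not tested.

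Reactivated was set against Proliferative to ask how the level at 24 h compares with that of a young active apex. By edgeR 20 members were higher in Reactivated, 5 were lower and 47 had no call, where 18.5% of all genes tested were higher and 22.6% lower. The members' shares of 27.8% and 6.94% cannot be set against those of all genes tested. The choice required Reactivated counts and set no limit in Proliferative. Also, 56 members passed the low-count filter only by their Arrested libraries, which are not part of this comparison. The shares are a description from which nothing is read. With counts under 3 set to 3, the median log2 ratio of pooled levels was 1.15 over the members and -0.09 over all genes tested. The same limits hold for these medians. The 20 higher members include all 6 without a call between Reactivated and Arrested, and 8 of the 9 that were at 1 CPM in every Reactivated library. For 17 of these 20, every Reactivated library lay above every Proliferative library. Their calls make this likely and the share over all genes tested was not computed, so it is a description only. Without Proliferative 3 the counts were 25 higher, among them all 20, and 1 lower, which was Psat4g084760. When only the 8 libraries of the 2 groups were fitted, 11 were higher and 0 lower. That fit filtered genes anew on these libraries. Many members, among them the 5 lower ones, did not pass and were not tested. These counts therefore cannot be set against the 20 and the 5.

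**Figure D5:**
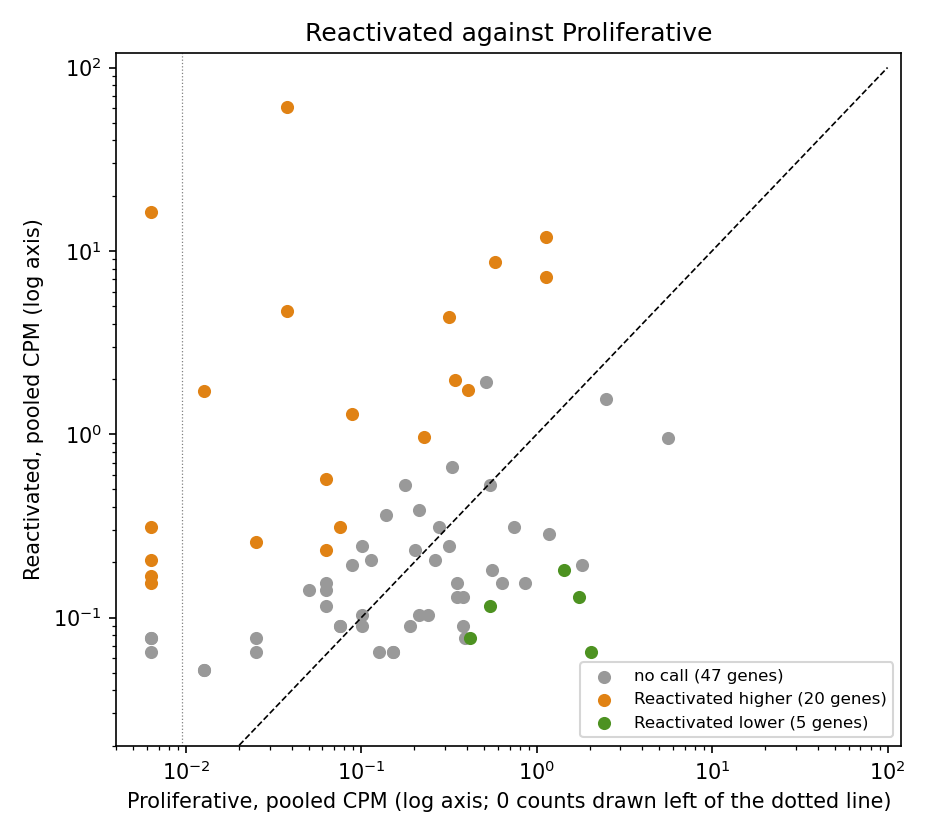
Pooled CPM of the 72 genes in Proliferative (horizontal) and Reactivated (vertical) on log axes, coloured by edgeR call; the dashed line marks equal levels and genes with 0 Proliferative counts are drawn left of the dotted line. The 20 higher genes lie above the line, with Psat1g095640 at the top, and the 5 lower genes lie at the lower right.

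The largest differences above Proliferative were those of the pair named above. Psat1g095640 had 4724 counts in Reactivated and 3 in Proliferative, all in replicate 3, a ratio of 1616 in pooled CPM with a 95% Poisson interval of 553 to 7839 (edgeR adjusted p = 4.62e-08). Psat1g095720 had 1264 counts in Reactivated and 0 in Proliferative, at least 432-fold higher against a floor of 3 counts over the group (edgeR adjusted p = 5.72e-09). Intervals and floors of this kind cover counting error only.

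Psat4g084760 and Psat0s4503g0040 were the members called lower in Reactivated with the largest differences in CPM. Psat4g084760 stood at 1.74, 0.416, 3.41 and 3.00 CPM in Proliferative and at 8.43, 4.79, 14.4 and 1.54 in Arrested. Its 5 Reactivated counts were all in replicate 2, so 3 of the 4 Reactivated libraries held none. The log2 fold change from Proliferative to Reactivated was -4.55 (SE 1.02, edgeR adjusted p = 0.00208). Psat0s4503g0040 stood at 0.280, 0, 5.63 and 1.70 CPM in Proliferative and had 1, 4, 2 and 3 counts in Reactivated. The Proliferative libraries spanned the whole range from 0 upward, and its call (-3.41 on the log2 scale, SE 1.08, adjusted p = 0.0184) was lost without Proliferative 3.

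Against Pruned, where the choice had set the members to near 0, 17 were called higher in Proliferative by edgeR and 0 lower, with 1.75% of all genes tested higher. The limit on Pruned counts favours this direction, and nothing is read from the share. The count was 9 without Proliferative 3, all among the 17, and 12 of the 17 were highest in that library. When only the 8 libraries of these groups were fitted, 1 member was higher. That fit filtered genes anew on these libraries. With so few Pruned counts, a member had to pass the filter in all 4 Proliferative libraries to be tested. Most members did not, so this count cannot be set against the 17.

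The 32 genes that met the Arrested and Pruned limits but had 3 or fewer Reactivated counts were the nearest set for comparison. They had a median mean Arrested CPM of 3.88 and a highest value of 23.0, against 5.49 and 282 for the 72 members, and 2 of 32 and 14 of 72 reached 20 CPM. A level of 1% of Arrested would amount to 3 or fewer Reactivated counts for 25 of the 72 and for 17 of the 32, and a level of 3% for 1 of the 72 and 0 of the 32. In Proliferative, 12 of the 32 (37.5%) and 16 of the 72 (22.2%) had 3 or fewer counts. This difference was not tested.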

How the data were processed

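Raw counts per gene were deposited by the authors as 1 table of 16 libraries, with 0 rows that name no gene and 0 columns of other samples. Per the labels' protocols, strand-specific libraries of polyadenylated RNA were made. The tools listed in the submitters' processing notes are HTSeq, HISAT2, DESeq2 and cutadapt. The table's name says that counting ignored strand. For the build and the annotation, the sources used here give no name. Members and comparisons were chosen with earlier results of these data known. Genes were filtered with filterByExpr by group, which kept 23979. All 72 members passed, 56 of them only by their Arrested libraries, and 30 of these had no other library past the filter's CPM limit. R 4.3.3 and edgeR 4.0.16 were used with TMM factors and a quasi-likelihood fit of the groups over all libraries, with Benjamini-Hochberg adjusted p under 0.05 as a call. A standard error is the log2 fold change divided by the square root of F. Pooled CPM is the summed count over the summed library totals of a group. Single genes were named by a rule of at most 2 higher and 2 lower per comparison, with exceptions marked. Replicates differed by more than sampling noise (lowest chi-square per degree of freedom 11.5). Where labels do not say that replicates are separate plants, p-values measure the spread between these libraries. Alternatives were library totals, RLE size factors, DESeq2 1.42.0, no filter, a replicate block, the compared groups alone and leaving out each library.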

Additional observations from a re-analysis of the deposited data

Results flagged for a closer look

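The members whose values are given library by library above, and 4 summaries of all members, were searched for outlying libraries. Other genes named above were not looked at. Leaving out gene sets with 3 or fewer summed counts, this made 61 sets of 4 libraries. In 8 of them 1 library lay far from the other 3 by Dixon's 95% criterion for its gap to the nearest. Chance gives about 1 in 20 for normally distributed values. Low counts with zeros are not distributed in that way, so the 8 sets cannot be judged against this rate.

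Proliferative 3 was the high library for Psat6g002880 (1.42 CPM), Psat4g199880 (20.2 CPM), Psat5g242600 (2.56 CPM) and Psat5g242640 (5.06 CPM). Proliferative 2 was the low library for Psat0s2234g0120, at 0.0832 CPM. Arrested 2 stood high for Psat5g044760, at 6.14 CPM. Reactivated 2 stood high for Psat5g201640, at 1.53 CPM, and for Psat4g084760, at 0.283 CPM, which is 5 counts where the other 3 libraries had 0.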

How the results depend on the processing

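The count of members lower in Reactivated than in Arrested stayed between 64 and 69 under all alternatives run, and 0 were higher in each. Members higher in Reactivated than in Proliferative numbered 18 to 25 with 1 library left out, and 11 with only the 8 libraries compared. Members lower there numbered 10 with library totals, 3 with RLE size factors, 0 with only the 8 libraries, and 1 (without Proliferative 3) to 10 (without Proliferative 2) with 1 library left out. Members higher in Proliferative than in Pruned numbered 29 by DESeq2, 1 with only the 8 libraries, and 5 (without Pruned 2) to 23 (without Proliferative 2). In these comparisons with Proliferative, the fits of only 8 libraries filtered genes anew and left many members untested. Untested members were counted as having no call, so those counts say little about stability. The median percent kept was 6.32% with TMM sizes. The membership itself depended on its limits, with 43 genes at 2 CPM in Arrested, 25 at 0 and 158 at 10 or fewer Pruned counts, and 46 at more than 10 Reactivated counts. Members on in every Reactivated library numbered 14 at 0.5 CPM. Members with few Proliferative counts numbered 8 at 0 counts, 32 at 10 or fewer, and 16 to 35 (without Proliferative 3) with 1 library left out. The fold change of Psat6g002880 was -0.39 with library totals and ran from -0.075 to 0.44 with 1 library left out, and that of Psat5g201640 from -0.64 to 0.064. The cause was not tested.

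The replicate numbers did not pair the libraries across all groups: 3 of 24 same-number correlations were over 0.1, and 1 of 16 libraries correlated best with its own number. The correlations ran from -0.32 to 0.59. The largest were 0.59 for Proliferative 2 with Reactivated 2 and 0.54 for Proliferative 1 with Pruned 1. With a replicate block, 66 members were lower in Reactivated than in Arrested, 20 higher and 4 lower than in Proliferative, 71 higher in Arrested than in Proliferative, and 12 higher in Proliferative than in Pruned. Depth limits the low members most, since 26 had 10 or fewer Reactivated counts.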
